A study of Mus musculus with 47 samples.

Results

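Toll-like receptors (TLRs) pass their signal to a small set of proteins inside the cell, and the transcripts of 9 of these proteins are described here across 12 RNA-seq libraries of mouse macrophages. The members were taken by gene symbol. They are the 4 adaptor genes Myd88, Ticam1, Ticam2 and Tirap, the 4 IRAK genes Irak1, Irak2, Irak3 and Irak4, and Traf6. All 9 were found once among the 51912 genes of each bone marrow-derived macrophage (BMDM) table and in each of the 4 Raw264.7 tables, which list from 12771 to 23772 genes. The 12 libraries belong to a series of 47 samples that asks how ZMYND8, a nuclear reader of histone marks, acts on inflammatory genes in macrophages, and the other 35 samples were not analysed here. The WT BMDMs came from littermates homozygous for the floxed Zmynd8 allele without Cre, and the Zmynd8 cKO BMDMs from mice of the same strain, C57BL/6, that also carried Cre at the myeloid Lyz2 locus. Both were grown in M-CSF. The libraries labelled M0 received nothing more (NT), those labelled M1 had 6 h of LPS, a component of the bacterial outer membrane, at 100 ng/ml, and those labelled M2 had 6 h of the cytokine IL-4 at 20 ng/ml. Biological replicates were mixed before library construction according to the study's methods, and the ages of the mice for these cultures are not given in the sources used here.

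The 6 other libraries are labelled Raw264.7, a macrophage-like cell line derived from a male mouse. Of these, 3 share a deletion of Zmynd8 and carry no added gene (Zmynd8 KO), WT Zmynd8, or the D/E-A form, in which acidic residues are replaced by alanine. The labels of these lines name no treatment, whereas the study's text describes the RNA-seq of WT Zmynd8 and D/E-A cells as done with LPS, so these libraries cannot be taken as untreated. All 6 libraries are also labelled C57BL/6 and bone marrow. The other 3 share a deletion of p65, the NF-κB subunit encoded by Rela, were given LPS at a dose and time that the labels leave out, and carry no added gene (p65 KO), WT p65, or p65 K122R. The column taken as WT p65 is headed only as WT with LPS and may hold unmodified Raw264.7 cells, which bears on every comparison with WT p65. Whether each line is 1 clone is not given in the sources used here. Every condition is 1 library, so no difference has a replicate check and no test between conditions was possible.

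Binding of a ligand brings the receptor tails together, and the adaptors dock there through a shared domain called TIR. TIRAP recruits MYD88 to the plasma membrane, and MYD88 then gathers IRAK4 with IRAK1 or IRAK2 into a signalling complex. The kinases pass the signal to TRAF6, a ubiquitin ligase, which leads to activation of NF-κB and MAP kinases. TICAM1, also called TRIF, serves TLR3 and, with the help of TICAM2, also called TRAM, serves TLR4, and drives interferon genes. IRAK3, also called IRAK-M, is known in macrophages as an inhibitor of the complex that accumulates after exposure to LPS.

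The genes lie apart in the genome (mm10, positions as deposited). Myd88 (ENSMUSG00000032508) is at chr9:119335988-119340040 and Tirap (ENSMUSG00000032041) at chr9:35184391-35200291, both on the minus strand. Ticam1 (ENSMUSG00000047123) is at chr17:56269462-56276767 on the minus strand. Irak1 (ENSMUSG00000031392) is at chrX:74013914-74023921 on the minus strand, Irak2 (ENSMUSG00000060477) at chr6:113638467-113695026 on the plus strand, Irak3 (ENSMUSG00000020227) at chr10:120141648-120201744 on the minus strand and Irak4 (ENSMUSG00000059883) at chr15:94543613-94568317 on the plus strand. Traf6 (ENSMUSG00000027164) is at chr2:101678420-101701668 on the plus strand.

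The promoters of Myd88 and Irak1 are shown because these 2 genes had the widest range of levels over the BMDM libraries. Of the 9 members, 8 matched a promoter in RefSeq (GRCm38.p6), with 11 promoters in all. Each line gives the 250 bases before the RefSeq start, 5′ to 3′ on the strand of the gene, that of Myd88 from chr9:119340019-119340268 and that of Irak1 from chrX:74023922-74024171. Capitals mark the 1 match to the motifs searched, which is GAAA, any 2 bases and GAAA again, a pattern bound by interferon-regulatory factors.
Myd88: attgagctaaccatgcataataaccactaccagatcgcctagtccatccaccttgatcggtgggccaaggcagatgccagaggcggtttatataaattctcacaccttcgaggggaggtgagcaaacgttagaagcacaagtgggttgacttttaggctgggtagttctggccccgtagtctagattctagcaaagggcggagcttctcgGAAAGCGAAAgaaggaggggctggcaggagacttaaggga
Irak1: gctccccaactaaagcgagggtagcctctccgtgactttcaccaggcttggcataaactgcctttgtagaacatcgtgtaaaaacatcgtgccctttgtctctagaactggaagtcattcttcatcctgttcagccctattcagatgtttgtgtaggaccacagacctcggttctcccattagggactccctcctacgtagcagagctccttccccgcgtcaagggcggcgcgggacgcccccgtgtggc
The match in Myd88 begins 40 bases before the start. Among all 32851 promoters, 3.44% held this pattern on either strand between 250 bases before the start and 50 bases after it, and among the 11 member promoters 1 did. The NF-κB consensus was in 4.51% of promoters and TGANTCA, a pattern of AP-1, in 7.81%, and neither was in a member promoter in this window. A match is a description of letters and not a bound site.

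BMDM libraries held 22597408 to 28386612 counts and Raw264.7 libraries 15127110 to 21042628 reads. All 8 macrophage markers were present in every library, with summed levels from 13205 to 21897 CPM (counts per 1000000 counts of the library) in BMDMs. In recovered reads, the sums were 5203 to 10605 CPM in the Raw264.7-labelled Zmynd8 lines and 1710 to 2075 CPM in the p65 lines. Nos2 stood at 7472 and 7391 CPM after LPS and at 8.74 CPM or less otherwise, and Arg1 at 1500 and 1541 CPM after IL-4 and at 26.5 CPM or less otherwise. Other markers of LPS treatment stood higher in cKO IL-4 than in WT IL-4. Tnf was at 129 against 38.7 CPM, Cxcl10 at 97.8 against 22.2, Il1b at 40.8 against 13.2 and Il6 at 2.14 against 0.211. Each was higher still in the LPS library of its genotype. Of the other IL-4 markers, Chil3 was at 399 in cKO IL-4 against 296 in WT IL-4, Mrc1 at 904 against 1131 and Retnla at 0.191 against 2.99. Zmynd8, the targeted gene, was at 87.1 CPM in WT and 81.5 in cKO in NT, at 79.0 and 86.8 after LPS, and at 128 and 151 after IL-4, so its gene count was not called lower in cKO in any condition and does not show the deletion. Reads of the floxed exons alone were not analysed here, so the cKO label was not checked. Lyz2, where Cre is inserted, was lower in each cKO library than in WT, with log2 fold changes of -0.60 in NT, -1.25 after LPS and -0.77 after IL-4. Lyz2 is also among the 8 macrophage markers, and in WT NT it gave 10950 of their summed 21897 CPM. So the marker sums, counts and medians between genotypes include the locus altered by Cre. In BMDMs, the 9 neutrophil markers summed to between 2.37 and 4.22 CPM in the NT and LPS libraries, and to 383 (WT) and 515 CPM (cKO) in the IL-4 libraries. The 6 dendritic cell markers summed to 37.6 to 68.5 CPM in NT and LPS and to 248 (WT) and 215 CPM (cKO) after IL-4, with Cd209a at 0 in both. B cell markers reached at most 17.2 CPM and T cell markers at most 0.133 CPM.

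The libraries labelled Raw264.7 form 2 sets that stand apart. The 3 libraries of the Zmynd8 lines held all 9 neutrophil markers, summed to 10423 (WT Zmynd8), 4439 (D/E-A) and 6995 CPM (Zmynd8 KO) of recovered reads, and all 4 B cell markers at 119 to 161 CPM. They also held 7109 to 8467 reads of Xist, a transcript of the inactive X chromosome in female cells, and at most 2 reads of each of the Y-linked genes Ddx3y, Eif2s3y and Kdm5d, which the D/E-A table does not list. The BMDM libraries likewise held 6133 to 31447 reads of Xist, with 0 of Ddx3y and at most 9 of Kdm5d. The 3 p65 lines held at most 0.319 CPM of neutrophil markers, of which their tables list 3 of 9, and at most 3 Xist reads, with Ddx3y at 25.5 (WT p65), 109 (K122R) and 44.8 CPM (p65 KO). The Zmynd8 lines thus go against the label of a male cell line, and they are called below by their labels only.

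Read per length, as TPM (transcripts per 1000000 transcripts), Myd88 was the most abundant member in 5 of the 6 BMDM libraries and Irak1 in the WT IL-4 library. Tirap was the lowest in all 6. In WT cells without treatment the TPM were 75.3 for Myd88, 52.2 for Irak1, 46.0 for Irak2, 20.9 for Ticam1, 17.4 for Irak4, 11.0 for Irak3, 10.6 for Ticam2, 8.33 for Traf6 and 8.12 for Tirap. After LPS in WT cells Myd88 stood at 193 TPM, Irak2 was next at 51.4 and Irak3 followed at 26.6, above Irak1 at 13.7. With IL-4 in WT cells, Irak1 led at 73.7 TPM over Myd88 at 63.6. Neighbours such as Irak3 and Ticam2 in WT NT, or Irak3, Irak4 and Ticam1 in cKO IL-4 (22.1, 22.6 and 22.1 TPM), have no replicate spread that could order them. The ratio of TPM to CPM of a gene differed up to 1.61-fold between libraries for Tirap and 1.19-fold to 1.35-fold for the other 8.

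Changes between libraries are given as log2 fold changes of CPM plus 1 for BMDMs, with 95% exact (Clopper-Pearson) limits on the 2 counts. These limits cover counting error only, not the spread between cultures. A gene is called higher or lower at a fold change of at least 1.2, a rule of size without a test. All 9 members passed the filter on low values in every comparison. Fewer cells of a type and less RNA per cell cannot be told apart in any of these values.

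**Figure D1:**
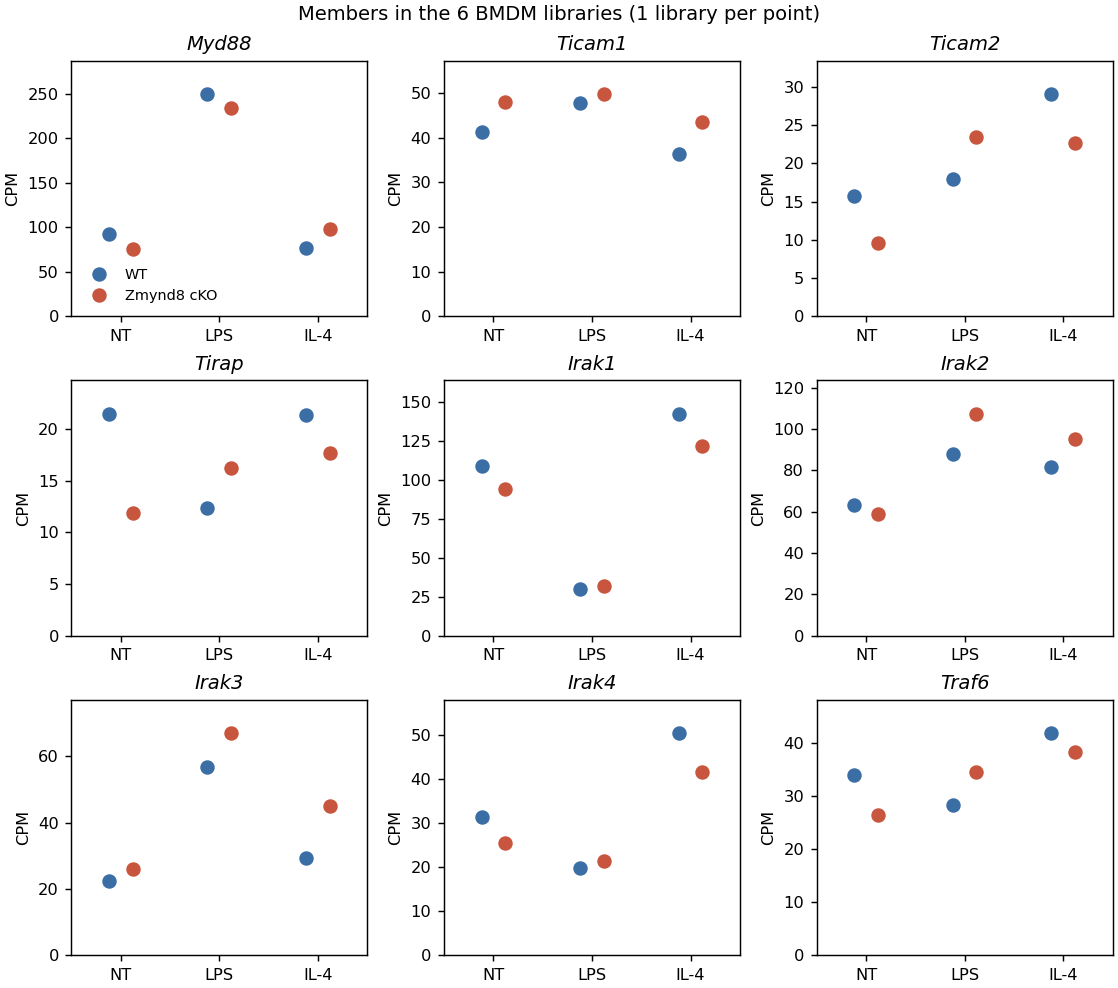
Level of each member in CPM (y axis, from 0) in WT (blue) and Zmynd8 cKO (red) BMDMs in NT, LPS and IL-4, 1 library per point and no error bars. Myd88 stood at 249 and 234 CPM after LPS and at 97.7 CPM or less elsewhere, and Irak1 at 29.6 and 31.8 CPM after LPS and at 94.2 CPM or more elsewhere.

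After LPS, Myd88, Irak2 and Irak3 stood higher and Irak1 lower in both genotypes. Myd88, the adaptor used by most TLRs, stood at 92.4 CPM in WT NT and 75.3 in cKO NT, and at 249 in WT LPS and 234 in cKO LPS. The LPS libraries lay above the NT libraries in both genotypes, with log2 fold changes of 1.42 (95% limits 1.36 to 1.5) in WT and 1.62 (1.56 to 1.72) in cKO. Irak1, the kinase that IRAK4 acts on, went the other way, from 108 CPM in WT NT and 94.2 in cKO NT to 29.6 in WT LPS and 31.8 in cKO LPS. Its log2 fold changes were -1.84 (-1.99 to -1.76) in WT and -1.54 (-1.69 to -1.45) in cKO, at percentiles 11.1 and 17.5 of all genes tested. Irak1 was the 1 member that was lower by at least 1.2-fold in both genotypes under each of the scalings tried.

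Irak3, the inhibitor, was at 22.4 CPM in WT NT, 25.9 in cKO NT, 56.7 in WT LPS and 67.0 in cKO LPS. Its LPS libraries lay above both NT libraries, with log2 fold changes of 1.30 (1.2 to 1.48) in WT and 1.34 (1.23 to 1.51) in cKO. Irak2, the kinase that can take the place of IRAK1, was at 63 CPM in WT NT and 59.1 in cKO NT, and at 87.9 in WT LPS and 107 in cKO LPS. The log2 fold changes were 0.47 (0.39 to 0.57) in WT and 0.85 (0.77 to 0.96) in cKO. Read as TPM plus 1, the Irak2 change in WT was 0.16 and no longer reached 1.2-fold.

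The remaining 5 members changed less or differed between genotypes. Tirap, the sorting adaptor for MYD88, was at 21.5 CPM in WT NT and 12.3 in WT LPS, but at 11.9 in cKO NT and 16.2 in cKO LPS. Its log2 fold changes had opposite signs, -0.76 (-1.01 to -0.60) in WT and 0.42 (0.22 to 0.68) in cKO, a pattern called in 2.82% of the 12427 genes tested in both. Ticam2, the bridging adaptor of TLR4, was at 15.8 CPM in WT NT, 9.60 in cKO NT, 17.9 in WT LPS and 23.5 in cKO LPS, with log2 fold changes of 0.17 (-0.01 to 0.38) in WT and 1.21 (1.06 to 1.52) in cKO. Traf6 was at 34.0, 26.5, 28.3 and 34.5 CPM in the same order, with -0.26 (-0.41 to -0.12) in WT and 0.37 (0.23 to 0.54) in cKO. Irak4, the kinase at the head of the complex, was at 31.4, 25.5, 19.7 and 21.3 CPM, with -0.65 (-0.84 to -0.51) in WT and -0.25 (-0.43 to -0.08) in cKO. Ticam1 was at 41.2, 48.1, 47.8 and 49.7 CPM, with log2 fold changes of 0.21 in WT and 0.05 in cKO, and was called higher in cKO when read as TPM (0.31).

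In WT, 3 members were higher and 3 lower after LPS, beside 21.7% of all 12813 genes tested that were higher and 63% that were lower. In cKO, 6 were higher and 1 was lower, beside 25.0% and 60.5% of 12666 genes. The median log2 fold change of the members was 0.17 in WT and 0.42 in cKO, and that of all genes tested -0.58 and -0.55. Scaling by TMM or by the median ratio moved the median of all genes up by 0.49 and 0.51 in WT and by 0.47 and 0.48 in cKO, and the share of called genes that were higher moved from 25.6% to 45.0% and 46.2% in WT and from 29.3% to 46.7% and 47.4% in cKO. Of all genes tested, TMM called 4523 of 12813 higher and 5533 lower in WT, and 4800 of 12666 higher and 5470 lower in cKO. The median ratio called 4638 higher and 5411 lower in WT, and 4854 and 5397 in cKO. Under both of these scalings 6 members were higher and 1, Irak1, was lower in WT, and 8 were higher and 1 lower in cKO. Tirap (-0.21 and -0.18) and Irak4 (-0.09 and -0.06) were then not called in WT, Traf6 turned to 0.31 and 0.33 in WT, and Irak4 turned to 0.29 and 0.30 in cKO. Ticam1 was then called higher in both genotypes (0.78 and 0.80 in WT, 0.59 and 0.61 in cKO), and so was Ticam2 in WT (0.72 and 0.75). Relative to the median of all genes, Myd88, Irak2, Irak3, Ticam1, Ticam2 and Traf6 were higher and Irak1 lower in both genotypes. Of the 8 macrophage markers, 2 were higher and 4 lower after LPS in WT (median -0.42), and 5 higher and 3 lower in cKO (median 0.56). Of 3 dendritic cell markers tested, 2 were higher and 1 lower in each genotype, with medians of 1.58 in WT and 2.45 in cKO. The part of these markers in the LPS responses was not tested.

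**Figure D2:**
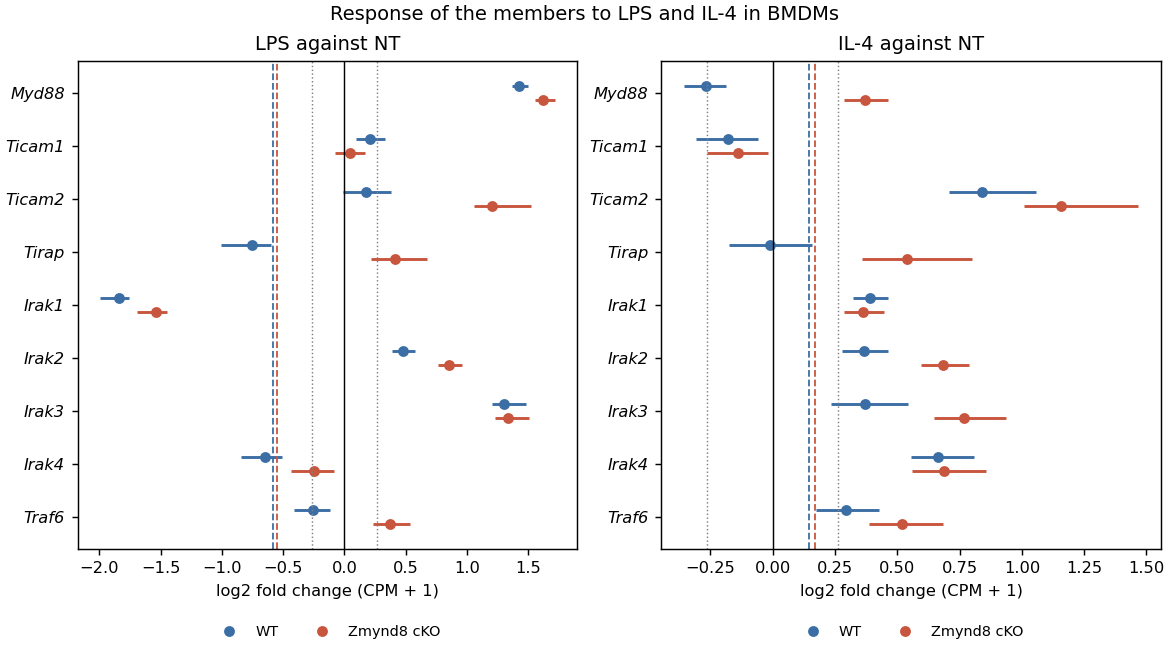
Log2 fold change of CPM plus 1 (x axis) of each member after LPS (left) and IL-4 (right) against NT, in WT (blue) and Zmynd8 cKO (red) BMDMs, 1 library per condition. Lines are 95% limits from counting error, dotted lines mark 1.2-fold, and dashed lines mark the median of all genes tested, at -0.58 and -0.55 after LPS and at 0.15 and 0.17 after IL-4.

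After IL-4, most members stood somewhat higher than in NT, none by as much as Myd88 in the LPS library of the same genotype. The IL-4 comparisons use the same NT libraries as the LPS comparisons. The sample numbers in the labels of the IL-4 libraries do not run on from those of the NT and LPS libraries, and their table has 2 entries that name no gene where the others have 431, so IL-4 and set cannot be told apart in these comparisons. Ticam2 showed the highest log2 fold change of the members in both genotypes, 0.84 (0.71 to 1.06) in WT, from 15.8 to 29.0 CPM, and 1.16 (1.01 to 1.47) in cKO, from 9.60 to 22.6 CPM. Irak4 followed in WT at 0.66 (0.56 to 0.81), from 31.4 to 50.4 CPM, and was at 0.69 (0.56 to 0.85) in cKO, from 25.5 to 41.7 CPM. These 2 genes were higher by at least 1.2-fold in both genotypes under each scaling.

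Irak3 was at 29.3 CPM in WT IL-4 and 44.9 in cKO IL-4, with log2 fold changes from NT of 0.37 (0.23 to 0.54) and 0.77 (0.65 to 0.94). Irak1 reached its highest level here, 142 CPM in WT and 121 in cKO, with 0.39 (0.32 to 0.46) and 0.36 (0.29 to 0.45). Irak2 was at 81.4 and 95.5 CPM, with 0.36 (0.28 to 0.46) and 0.68 (0.60 to 0.79). Traf6 was at 41.9 and 38.3 CPM, with 0.29 (0.17 to 0.43) and 0.52 (0.39 to 0.68). Every IL-4 library of these 4 genes lay above the NT library of its genotype. Tirap was at 21.4 and 17.8 CPM, with -0.01 (-0.18 to 0.16) in WT and 0.54 (0.36 to 0.80) in cKO. Ticam1, at 36.3 and 43.6 CPM, had small negative values of -0.18 and -0.14.

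Myd88 differed in sign between genotypes. It was at 76.5 CPM in WT IL-4 against 92.4 in WT NT, a log2 fold change of -0.27 (-0.36 to -0.19), and at 97.7 CPM in cKO IL-4 against 75.3 in cKO NT, 0.37 (0.29 to 0.46). Opposite calls of this kind were made for 2.34% of the 12689 genes tested in both. In WT, 6 members were higher and 1 lower, beside 41.3% and 23.1% of 13090 genes, and in cKO 8 were higher and 0 lower, beside 44.7% and 26.2% of 12966 genes. Member medians were 0.36 and 0.54, and those of all genes 0.15 and 0.17. TMM and the median ratio moved the median of all genes by -0.15 and -0.14 in WT and by -0.20 and -0.17 in cKO, and the share of called genes that were higher from 64.1% to 49.4% and 50.4% in WT and from 63.1% to 48.8% and 50.8% in cKO. They left 2 members higher and 2 lower in WT (Ticam1 at -0.35 and -0.34 with Myd88), and 6 higher and 1 lower, Ticam1, in cKO. Of all genes, TMM called 4052 of 13090 higher and 4151 lower in WT, and 4526 of 12966 higher and 4750 lower in cKO. The median ratio called 4129 higher and 4069 lower in WT, and 4693 and 4549 in cKO. Read as TPM, Myd88 (-0.24) and Irak2 (0.22) were not called in WT, and Tirap in WT (0.26) and Ticam1 in cKO (0.11) changed sign without reaching 1.2-fold. Myd88 in cKO under TMM and the median ratio was at 0.15 and 0.18 and not called, so the opposite calls of Myd88 were lost under each of these 3 settings. The neutrophil and dendritic cell markers given above were high in the IL-4 libraries, and their part in these differences was not tested.

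Between genotypes, the question was whether loss of ZMYND8 changes these transcripts. Without treatment the cKO library was lower for most members. Tirap stood at 11.9 CPM in cKO against 21.5 in WT, a log2 fold change of -0.80 (-1.07 to -0.64), at percentile 5.45 of all genes. Ticam2 stood at 9.60 against 15.8 CPM, -0.66 (-0.96 to -0.47), at percentile 8.48. Traf6 followed at -0.35 (-0.51 to -0.21), Myd88 at -0.29 (-0.38 to -0.20) and Irak4 at -0.29 (-0.46 to -0.14). Irak1 (-0.20), Irak2 (-0.09), Irak3 (0.20) and Ticam1 (0.22) did not reach 1.2-fold. So 0 members were higher and 5 lower, beside 25.0% and 29.0% of 12463 genes, and the member median was -0.29 beside -0.01 for all genes. Under TMM, Myd88 and Irak4 (both at -0.26) did not quite reach 1.2-fold, which left 3 lower, beside 3388 of 12463 genes. Read as TPM, the median of all genes moved by -0.19, the share of called genes that were higher went from 46.3% to 22.0%, and Irak1 (-0.49) joined the members called lower. The 8 macrophage markers, Lyz2 among them, also differed, with 6 called lower and 1 higher in cKO and a median of -0.60, and their part in the result was not tested.

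After LPS, Tirap and Ticam2, the lowest of the NT comparison, were higher in cKO. Ticam2 was at 23.5 CPM in cKO against 17.9 in WT, 0.37 (0.21 to 0.57), and Tirap at 16.2 against 12.3 CPM, 0.37 (0.17 to 0.62). Irak2 was at 107 against 87.9 CPM, 0.29 (0.21 to 0.37), and Traf6 at 34.5 against 28.3 CPM, 0.28 (0.14 to 0.44). Irak3 at 0.24 (0.14 to 0.35), Irak4 at 0.11, Irak1 at 0.10, Ticam1 at 0.05 and Myd88 at -0.09 (-0.14 to -0.04) did not reach 1.2-fold. Thus 4 members were higher and 0 lower, beside 22.6% and 13.3% of 12386 genes, with a member median of 0.24 beside 0.03 for all genes. Under TMM and the median ratio, Irak2 (0.25 and 0.23) and Traf6 (0.24 and 0.23) lost the call, which left Ticam2 and Tirap, beside 2426 and 2259 of 12386 genes higher. Read as TPM, Traf6 (0.22) was not called and Irak1 (0.28) and Irak3 (0.31) were called higher, which gave 5 members higher, beside 3475 of 12386 genes. Of 4 dendritic cell markers tested, 2 were higher and 0 lower in cKO (median 0.39, summed 37.6 CPM in WT and 55.3 in cKO), and of the 8 macrophage markers, Lyz2 among them, 2 were higher and 1 lower (median -0.05), and their part in the result was not tested.

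Tirap, Ticam2 and Traf6 were therefore called lower in NT and higher after LPS in cKO, as were 12% of the 11552 genes tested in both. The change of sign restates the LPS responses above, since the same 4 libraries enter. The difference between the 2 genotype effects was 1.17 for Tirap, 1.03 for Ticam2 and 0.63 for Traf6 on the log2 scale, and it was not tested.

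After IL-4, Irak3 gave the highest genotype difference, 44.9 CPM in cKO against 29.3 in WT, 0.60 (0.49 to 0.75). Myd88 was at 97.7 against 76.5 CPM, 0.35 (0.27 to 0.44), so it was lower in cKO in NT and higher after IL-4, a pair of calls shared by 4.77% of 12118 genes. Ticam2 was at 22.6 against 29.0 CPM, -0.35 (-0.51 to -0.21), so it was higher in cKO after LPS and lower after IL-4, as were 2.35% of 11753 genes. Irak4 was at 41.7 against 50.4 CPM, -0.27 (-0.39 to -0.16). Ticam1 (0.26), Irak2 (0.23), Traf6 (-0.12), Irak1 (-0.23) and Tirap (-0.25) did not reach 1.2-fold. This gave 2 members higher and 2 lower, beside 17.3% and 13.4% of 13245 genes, with a member median of -0.12 beside 0.01 for all genes. Of the neutrophil markers, 6 of 8 tested were higher in cKO and 0 lower (median 0.31), and of the 8 macrophage markers, Lyz2 among them, 1 was higher and 3 lower (median -0.13), and their part in these differences was not tested. The LPS markers Nos2 (1.87), Tnf (1.71), Cxcl10 (2.09), Il1b (1.56) and Il6 (1.38, from 56 and 6 reads) were also higher in cKO here. Their part was not tested either. Tirap was called lower at -0.26 to -0.28 under TMM, the median ratio and TPM. Read as TPM plus 1, 3 members were higher and 4 lower, with Irak2 at 0.47, beside 2254 higher and 2080 lower of 13245 genes. Ticam1 and Irak3 were above WT in cKO in all 3 conditions, though neither was called in NT or LPS. Read as TPM, both stood below 0 in NT, at -0.03 and -0.01, and Irak3 was called higher after LPS (0.31).

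**Figure D3:**
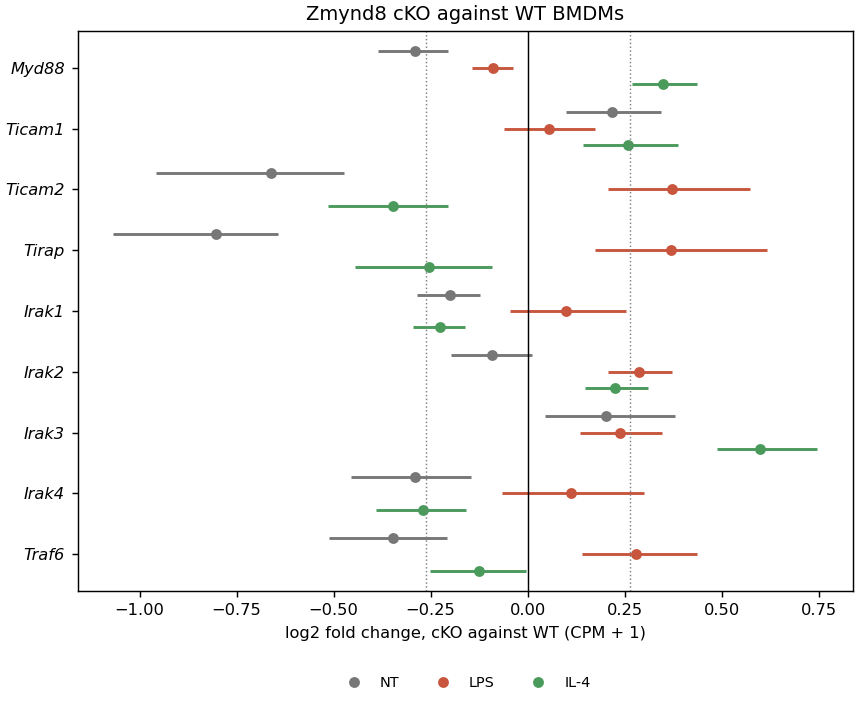
Log2 fold change of CPM plus 1 in Zmynd8 cKO against WT BMDMs (x axis) for each member in NT (grey), LPS (red) and IL-4 (green), 1 library per condition. Lines are 95% limits from counting error and dotted lines mark 1.2-fold. Tirap and Ticam2 are at -0.80 and -0.66 in NT and at 0.37 each after LPS, and Irak3 is at 0.60 after IL-4.

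Several members share exon bases with neighbours in the GENCODE annotation, and reads there cannot be assigned with certainty. Strand-specific counting is not stated in the sources used here. Ticam2 (ENSMUSG00000056130, on the minus strand of chromosome 18) shares 838 exon bases with Tmed7 on the same strand, Irak4 shares 395 with Twf1, Myd88 290 with Acaa1a, and Irak3 192 with Tmbim4 on the opposite strand. Tirap shares 446 bases with an antisense transcript, Gm39318, and 39 with Srpr. Irak2 shares 196 with Gm43963, and Irak1 71 with Mir5132 and 70 with Mir718. Tmed7 was at -0.80 in WT and -0.29 in cKO from NT to LPS, at 0.46 and 0.70 from NT to IL-4, and at -0.25, 0.26 and -0.01 in cKO against WT in NT, LPS and IL-4. It had the sign of Ticam2 in all of these except the LPS responses, and also in D/E-A (0.99), Zmynd8 KO (0.77) and p65 KO (0.13), but not in K122R (0.10). In the same order Twf1 was at -0.32, 0.13, -0.25, 0.09, -0.26, 0.19 and 0.09, with the sign of Irak4 after LPS in WT, after IL-4 in cKO, and between genotypes in NT and LPS. Acaa1a was at 1.23, 0.93, 0.13, 0.07, 0.19, -0.12 and 0.13, with a sign unlike Myd88 after IL-4 in WT and between genotypes in NT. Tmbim4 was at 1.22, 0.84, -0.23, -0.22, 0.24, -0.14 and 0.25, with a sign unlike Irak3 after IL-4 in both genotypes and between genotypes after LPS. In D/E-A, Zmynd8 KO, K122R and p65 KO, Twf1 was at 0.76, 0.47, -0.16 and -0.16, with the sign of Irak4 in the first pair. Acaa1a was at -0.42, -0.23, 0.40 and 0.08 there, unlike Myd88 in each. Tmbim4 was at -0.06, 0.36, -0.01 and -0.06, with the sign of Irak3 in Zmynd8 KO and p65 KO. Srpr was at 0.03, 0.28, -0.13, 0.12, -0.21, 0.03 and 0.03 in the BMDM comparisons, in the order used above. Its sign was unlike that of Tirap after LPS in WT and between genotypes after IL-4. In D/E-A, Zmynd8 KO, K122R and p65 KO, Srpr was at 0.87, 0.72, 0.23 and 0.07, with the sign of Tirap in D/E-A alone. Values of Gm39318, Gm43963, Mir5132 and Mir718 are not given here. How far shared reads enter the values of any of these members was not tested.

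The make-up of the IRAK family can be read within a library, free of scaling between libraries, as the share of each gene in the reads of Irak1 to Irak4. These shares are not divided by gene length, so they are compared for the same gene between libraries. Irak1 made up 48.1% of the reads (95% Clopper-Pearson interval 46.8% to 49.4%, counting error only) in WT NT and 46.0% in cKO NT, and 15.3% (14.3% to 16.3%) and 14.0% after LPS. The LPS libraries lay far below the NT libraries and also below IL-4, at 46.9% in WT and 40.0% in cKO. Irak3 took up 9.94% (9.19% to 10.7%) in WT NT and 12.7% in cKO NT, and 29.3% (28.0% to 30.6%) and 29.5% after LPS. With IL-4 it was 9.65% (9.03% to 10.3%) in WT and 14.8% (14.0% to 15.6%) in cKO. Irak2 made up 28.0% and 28.9% in NT and 45.3% and 47.2% after LPS, and Irak4 between 9.37% and 16.6%. In TPM, per length, the shares of Irak1 were 41.3% and 37.0% in NT and 13.4% and 13.2% after LPS, and those of Irak3 8.68% and 10.9% in NT and 26.1% and 26.0% after LPS.

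Among the reads of the 4 adaptors, Myd88 held 54.1% (52.6% to 55.5%) in WT NT and 52.0% in cKO NT, and 76.2% (75.2% to 77.1%) and 72.4% after LPS. Ticam1 accordingly went from 24.1% and 33.2% to 14.6% and 15.4%. Tirap held 12.6% (11.6% to 13.6%) in WT NT against 8.22% (7.30% to 9.21%) in cKO NT, and 3.77% (3.36% to 4.20%) against 5.01% (4.53% to 5.53%) after LPS. Ticam2 held 9.22% (8.39% to 10.1%) against 6.63% (5.80% to 7.53%) in NT, and 5.47% (4.99% to 5.99%) against 7.26% (6.68% to 7.86%) after LPS.

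**Figure D4:**
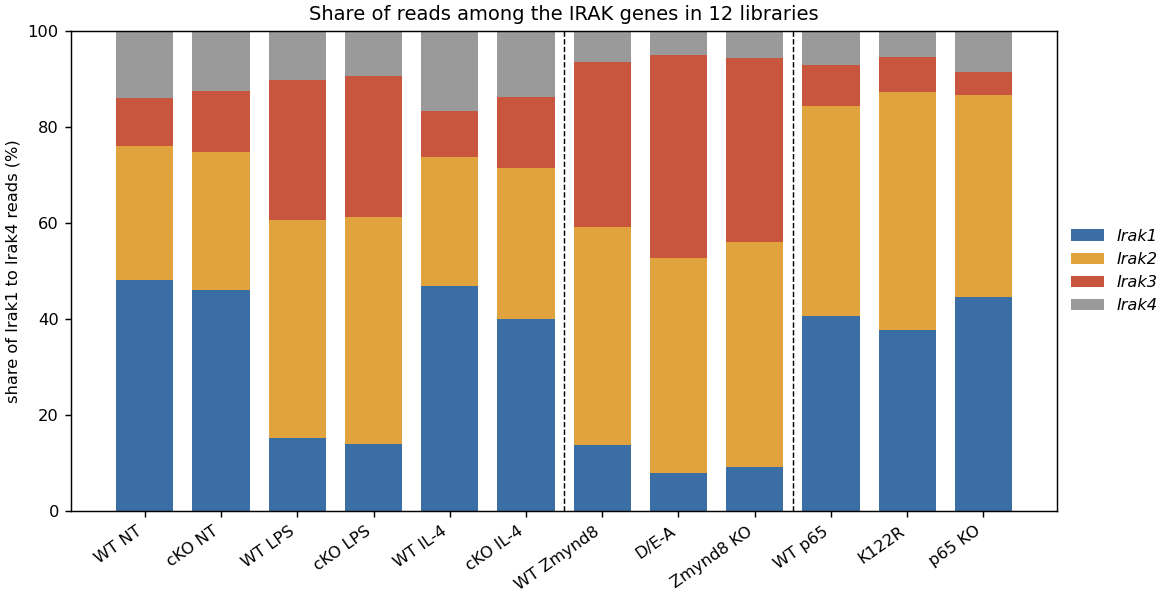
Share of each IRAK gene (stacked, y axis in %) in the summed reads of Irak1 to Irak4 in each of the 12 libraries, not divided by gene length. From left to right, separated by dashed lines, are the BMDMs, the Raw264.7-labelled Zmynd8 lines and the p65 lines. Irak1 takes 48.1% in WT NT and 15.3% in WT LPS BMDMs, 7.81% to 13.8% in the Zmynd8 lines and 37.8% to 44.5% in the p65 lines.

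The Zmynd8 lines and the p65 lines differed widely in this make-up. Irak3 held 34.2% (33.1% to 35.4%) of IRAK reads in WT Zmynd8, 42.4% in D/E-A and 38.3% in Zmynd8 KO, but 8.70% (7.80% to 9.67%) in WT p65, 7.24% in K122R and 4.85% in p65 KO. Irak1 held 13.8%, 7.81% and 9.10% in the first set and 40.6%, 37.8% and 44.5% in the second. Myd88 held 73.8% to 79.8% of adaptor reads in the Zmynd8 lines and 36.3% to 40.6% in the p65 lines. The line and the macrophage, neutrophil and B cell markers described above go with this split and cannot be told apart, and their part in it was not tested. LPS is named in the labels of the p65 lines alone, but the study's text names it for WT Zmynd8 and D/E-A too.

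In the Raw264.7-labelled libraries, changes are log2 fold changes of the deposited value plus 1, a read count that the authors had divided by a size factor within each table. The D/E-A and Zmynd8 KO comparisons share the WT Zmynd8 library, so their values are set side by side only. Myd88 had 7323 in D/E-A against 4412 in WT Zmynd8, a log2 fold change of 0.73 (0.68 to 0.79), and 7664 in Zmynd8 KO against 4709, 0.70 (0.65 to 0.76). Irak3 had 3772 against 2189, 0.78 (0.71 to 0.86), and 3327 against 2337, 0.51 (0.43 to 0.59). In each table WT Zmynd8 was the lower library for both genes.

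Traf6 had 576 in D/E-A against 387, 0.57 (0.39 to 0.76), and 541 in Zmynd8 KO against 413, 0.39 (0.20 to 0.58). Ticam2 had 408 against 276, 0.56 (0.34 to 0.79), and 440 against 295, 0.58 (0.36 to 0.80). Irak2 had 3991 against 2907, 0.46 (0.39 to 0.53), and 4075 against 3102, 0.39 (0.33 to 0.46). For these 3 genes WT Zmynd8 was again the lower library of each table. Irak1 had 695 in D/E-A against 882, -0.34 (-0.49 to -0.20), and 789 in Zmynd8 KO against 942, -0.25 (-0.39 to -0.12), the latter just short of 1.2-fold but called under TMM (-0.27) and with library totals (-0.32). Ticam1 (0.19 and 0.26), Irak4 (0.10 and 0.13) and Tirap (0.12 and -0.08) were not called.

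With D/E-A, 5 members were higher and 1 lower, beside 36.7% and 35.9% of 12771 genes, and with Zmynd8 KO 5 were higher and 0 lower, beside 33.8% and 36.5% of 21302 genes. The member medians were 0.46 and 0.39, and those of all genes 0.02 and -0.03. In D/E-A all 8 macrophage markers were higher (median 1.09) and all 9 neutrophil markers lower (median -1.45), and in Zmynd8 KO all 8 macrophage markers were higher (0.51) and 6 of 9 neutrophil markers lower (-0.61). In Zmynd8 KO, 3 of 4 B cell markers were also lower and 1 higher (median -0.46), and all 4 T cell markers were lower, at a summed 2.47 against 8.59 CPM. In D/E-A, 1 B cell marker was higher and 1 lower, and 1 T cell marker was lower. The 5 members that were higher thus had the direction of the macrophage markers and the opposite of most neutrophil markers, and the part of these in the result was not tested. The value of Zmynd8 itself in the Zmynd8 KO library, 116 against 506 in WT Zmynd8 (-2.11), is not a whole number of reads and was not used as a check. In the D/E-A table Zmynd8 was at 509 in D/E-A and 474 in WT Zmynd8.

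In the p65 lines after LPS, the deposited value of Rela was 778 in p65 KO against 1574 in WT p65, and 5963 in K122R against 1571, so Rela was higher in K122R than in the library taken as WT p65. Zmynd8 was lower in K122R, 1091 against 1791, a log2 fold change of -0.72 (-0.83 to -0.61), and was not called in p65 KO (-0.12). Irak3 was the member with the largest change in p65 KO, 163 against 309, a log2 fold change of -0.92 (-1.21 to -0.64), at percentile 8.41 of all genes, from 160 and 314 reads. Myd88 had 1659 against 2070, -0.32 (-0.41 to -0.23), and Tirap 906 against 1121, -0.31 (-0.43 to -0.18). Irak2 (-0.13), Traf6 (-0.04), Ticam1 (0.01), Irak1 (0.05), Ticam2 (0.18) and Irak4 (0.19) did not reach 1.2-fold. Of the 8 macrophage markers, 1 was higher and 1 lower (median 0.01), and of 4 dendritic cell markers tested 2 were higher and 0 lower (median 0.35), and their part in these values was not tested. With 0 members higher and 3 lower beside 26.3% and 25.7% of 19879 genes, the member median was -0.04 and that of all genes 0.01.

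In K122R, which shares the WT p65 library, Irak2 had 2305 against 1547, 0.57 (0.48 to 0.67), Ticam1 1574 against 1278, 0.30 (0.19 to 0.41), and Irak1 1756 against 1439, 0.29 (0.19 to 0.39). Irak3 had 336 against 308, 0.13 (-0.10 to 0.35), and Ticam2 529 against 631, -0.25 (-0.42 to -0.08). Myd88 (-0.06), Tirap (-0.07), Traf6 (-0.03) and Irak4 (0.03) stayed close to WT p65. Here 3 members were higher and 0 lower, beside 30.8% and 32.5% of 19670 genes, with a member median of 0.03 and 0.01 for all genes. Of the 8 macrophage markers, 3 were higher and 2 lower (median 0.13), and their part in the result was not tested. When recovered reads were divided by library totals, Ticam1 (0.15) and Irak1 (0.14) were not called, Ticam2 (-0.39) was called lower, and Irak3 (-0.02) and Irak4 (-0.11) changed sign, while the share of called genes that were higher moved from 48.6% to 31.3%. Irak2 was called under each of the scalings.

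**Figure D5:**
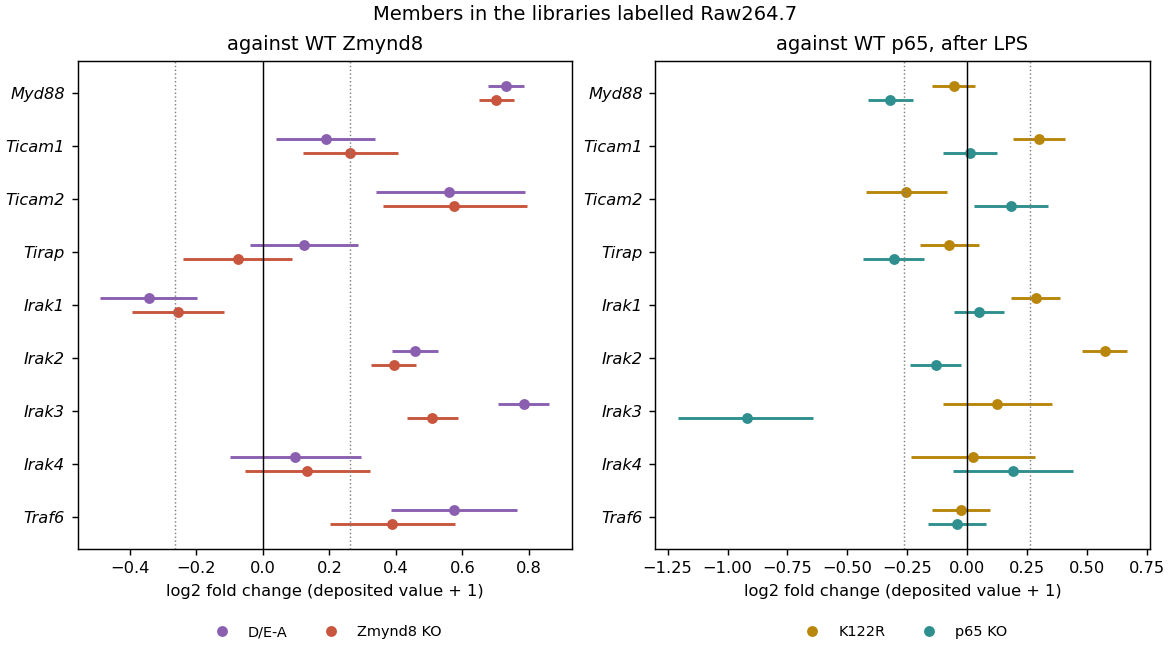
Log2 fold change of the deposited value plus 1 (x axis) of each member, left for D/E-A (purple) and Zmynd8 KO (red) against WT Zmynd8, right for K122R (gold) and p65 KO (teal) against WT p65 after LPS, 1 library per line. Lines are 95% limits from counting error and dotted lines mark 1.2-fold. Myd88 is at 0.73 and 0.70 on the left, and Irak3 is at -0.92 in p65 KO on the right.

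The proteins above and below the adaptors were read from 3 lists, 23 receptors and co-receptors, 18 downstream kinases and ubiquitin enzymes, and 11 brakes of the pathway. The second list also holds adaptors such as Tradd and Tab3, and is called downstream enzymes for short. After LPS in WT, 7 of 21 receptors tested were higher and 7 lower, and in cKO 11 of 22 were higher and 5 lower. Over all genes tested, 21.7% were higher and 63% lower in WT, and 25.0% and 60.5% in cKO. Tlr9, the receptor for unmethylated DNA, was the highest, from 20.9 to 261 CPM in WT (log2 fold change 3.58) and from 6.81 to 311 CPM in cKO (5.32). Tlr13, a receptor for bacterial RNA, was the lowest in WT, from 504 to 101 CPM (-2.30). Of the 18 downstream enzymes, 5 were higher and 10 lower in WT, and 7 and 6 in cKO, with Peli1, a ubiquitin ligase that acts on IRAKs, highest at 1.66 and 2.61 and Peli2 lowest at -1.78 and -1.71. Of 10 brakes tested, 6 were higher and 2 lower in WT, and 7 and 2 in cKO, and Socs1, an inhibitor of cytokine signalling, was highest at 5.65 and 5.61. Tollip, which binds IRAK1, was the lowest brake in WT, from 117 to 55.5 CPM (-1.07). The medians in WT were 0.17 for receptors, -0.33 for downstream enzymes and 0.90 for brakes, beside -0.58 for all genes, and in cKO 0.24, -0.02 and 1.53 beside -0.55.

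After IL-4, 13 of 21 receptors were higher and 5 lower in WT, and 13 and 4 of 19 in cKO, with Tlr2 highest at 3.16 and 3.66 and Cd180 lowest in WT at -2.35. Of the downstream enzymes, 12 were higher and 0 lower in WT and 13 and 1 in cKO, and of 11 brakes 7 and 3 in WT and 8 and 1 in cKO. Over all genes 41.3% were higher and 23.1% lower in WT, and 44.7% and 26.2% in cKO. Socs1 was again the highest brake, at 3.20 and 3.85, and Pik3ap1 the lowest in WT at -1.32. Traf3 led the downstream enzymes in WT at 1.31 and Ikbke in cKO at 2.07. Medians were 0.50, 0.37 and 0.55 in WT and 0.91, 0.67 and 0.99 in cKO in the order receptors, downstream enzymes and brakes, beside 0.15 and 0.17 for all genes.

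Between cKO and WT in NT, 5 of 20 receptors were higher and 11 lower, 1 and 11 of the 18 downstream enzymes, and 2 and 4 of 10 brakes. Medians were -0.29, -0.37 and -0.20, beside -0.01 for all genes, of which 25.0% were higher and 29.0% lower. Cd14, the LPS co-receptor, was the highest, 452 CPM in cKO against 223 in WT (1.01), and Tlr9 the lowest, 6.81 against 20.9 (-1.48). Tradd, an adaptor (0.53), was the 1 gene of the downstream list that was higher and Tab3, an adaptor of the kinase TAK1, the lowest (-0.81). After LPS, 5 receptors were higher and 3 lower of 20, 5 and 1 downstream enzymes, and 3 and 0 brakes of 10, with Cyld, a deubiquitinase, highest among the brakes at 0.48, and with list medians of 0.11, 0.17 and 0.10 beside 0.03 for all genes, of which 22.6% were higher and 13.3% lower. After IL-4, 6 and 3 of 19 receptors, 2 and 1 downstream enzymes, and 6 and 1 of 11 brakes were called, with Cd14 at 1.01, Peli1 at 0.84 and Tnfaip3, a ubiquitin-editing enzyme, at 0.76. The list medians were then 0.04, 0.05 and 0.35 beside 0.01 for all genes, of which 17.3% were higher and 13.4% lower.

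In D/E-A, 12 of 20 receptors listed were higher and 2 lower, 9 and 4 of 17 downstream enzymes, and 6 and 2 of 10 brakes, and in Zmynd8 KO 14 and 2 of 23, 7 and 2 of 18, and 5 and 2 of 10. Over all genes 36.7% were higher and 35.9% lower in D/E-A, and 33.8% and 36.5% in Zmynd8 KO. Tlr9 was the highest receptor in both (1.98 and 1.41), Map3k8 the highest downstream enzyme (1.25 and 0.87) and Pik3ap1 the highest brake (1.53 and 0.99). Nfkbia, the inhibitor of NF-κB, was the lowest brake in D/E-A at -0.79. The medians of receptors, downstream enzymes and brakes were 0.38, 0.30 and 0.41 in D/E-A and 0.47, 0.04 and 0.35 in Zmynd8 KO, beside 0.02 and -0.03 for all genes. In K122R, 9 of 20 receptors were higher and 3 lower, 3 and 1 of 17 downstream enzymes, and 4 and 2 of 11 brakes, and in p65 KO 6 and 5 of 18, 1 and 3 of 16, and 2 and 3 of 11. Over all genes 30.8% were higher and 32.5% lower in K122R, and 26.3% and 25.7% in p65 KO, so several of these counts lie near the share of all genes. Tlr8 was the lowest receptor in both (-1.22 and -0.95) and Sigirr the highest brake (1.24 and 1.29), from deposited values of 23.5 and 23.6 in WT p65 to 57.1 and 59.0. Ikbke was the lowest downstream enzyme in p65 KO at -0.53. In the same order the medians were 0.18, 0.06 and 0.07 in K122R and 0.04, -0.16 and -0.23 in p65 KO, beside 0.01 for all genes in each. Some of the list genes were too low for the filter or were not in a table, which is why the numbers tested differ.

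Across the 6 BMDM libraries, the genes with levels most like those of Irak1 and Myd88 were taken from 9933 genes averaging 100 or more counts. For Irak1 these were Xpc, Tmem241 and Kcnk6, each with Pearson r of 1.00 on log2(CPM + 1), and for Myd88 they were Nt5c3, Optn and Il15, likewise 1.00. Il15, for one, was at 16.5, 10.4, 152, 146, 9.05 and 17.9 CPM in the order WT NT, cKO NT, WT LPS, cKO LPS, WT IL-4 and cKO IL-4. Over these 6 libraries, 2276 genes had r over 0.95 with Irak1 and 460 with Myd88.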

How the data were processed

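The authors aligned BMDM reads to mm10 with TopHat and deposited estimated counts and TPM per gene. For the lines labelled Raw264.7 they deposited a signal per gene, reads divided by a size factor of the library within each table. Of these values, 100% were whole numbers of reads (tolerance 0.01), with 1 exception, Zmynd8 in Zmynd8 KO. The authors' fold changes and p-values between libraries, and 2 unlabelled columns of values, were not used. The counter and strand setting are not given in the sources used here.

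Estimated counts were rounded and divided by library totals to give CPM. Log2 fold changes used a pseudocount of 1 on CPM or on the deposited signal, and genes were kept at an average of 10 or more counts in BMDMs, or a signal averaging 1 or more in Raw264.7. The threshold of 1.2-fold is the fold the study's methods give, where it stood beside limits on p and false discovery rate that were not applied here. A figure legend of the study gives that number on the log2 scale instead. The 11 comparisons set 1 library against 1 library, and 8 alternatives were tried in each (edgeR 4.0.16 for TMM, DESeq2 1.42.0 for the median ratio, scipy 1.17.1 for exact limits). The code was tested on simulated data. Entries that name no gene (2 or 431 per BMDM table) were left out. Members and lists were chosen with earlier results of these data known. All 9 members are named in each comparison, and of each list at most the highest and the lowest called gene. Irak1 and Myd88, with the widest range over the BMDM libraries, were compared with other genes. Xist, the Y-linked genes, Lyz2, Nos2, Arg1 and the genes sharing exons were chosen after values were seen.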

Additional observations from a re-analysis of the deposited data

Results flagged for a closer look

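Some members gave calls of opposite sign under the same contrast in 2 groups. Each rests on 1 library per group, and the difference between the groups was not tested.

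In cKO against WT, Tirap had a log2 fold change of -0.80 in NT and 0.37 after LPS, Ticam2 -0.66 and 0.37, and Traf6 -0.35 and 0.28, as 12% of all genes did. Ticam2 was also at -0.35 after IL-4, against 0.37 after LPS. Myd88 was at -0.29 in NT and 0.35 after IL-4. From NT to LPS, Tirap was at -0.76 in WT and 0.42 in cKO, which restates the same 4 libraries and was not called in WT under TMM (-0.21). From NT to IL-4, Myd88 was at -0.27 in WT and 0.37 in cKO, but it was not called in cKO under TMM (0.15) or the median ratio (0.18), nor in WT under TPM (-0.24). Between genotypes, Myd88 in NT was not called under TMM (-0.26), and Traf6 after LPS was not called under TMM (0.24), the median ratio (0.23) or TPM (0.22). No group had the 4 samples needed to look for a library far from the rest.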

How the results depend on the processing

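A fold change of at least 2 in place of 1.2 left fewer members called, by construction. It left 3 in LPS against NT in WT and 4 in cKO, 0 in IL-4 against NT in WT and 1 in cKO, and 0 in each comparison of cKO with WT and in each of the 4 comparisons of the Raw264.7 lines. Of all genes tested, 43.3% and 46.0% passed 2-fold for LPS in WT and cKO, 16.2% and 21.1% for IL-4, 0.904% to 3.83% for cKO against WT and 15.8% to 25.6% for the Raw264.7 lines. TMM and the median ratio left 4 members called in IL-4 against NT in WT and 2 in cKO against WT after LPS, and TMM left 3 in cKO against WT in NT. TPM in place of CPM gave 7 in cKO against WT after IL-4. Of all genes tested, TMM and the median ratio called 62.7% and 62.6% for IL-4 in WT. They called 35.6% and 35.5% for cKO against WT after LPS. TMM called 54.1% for cKO against WT in NT, and TPM 32.7% after IL-4. The cause of these moves was not tested. The other settings tried, including the exact binomial test on the reads added to the fold rule, kept the number called within 1.5 times. No value called as reported changed sign under any of these settings, but Traf6 in LPS against NT in WT, not called as reported, was called lower with a pseudocount of 0.1 (-0.26) and higher under TMM (0.31) and the median ratio (0.33). That pseudocount also brought calls for Ticam1 (0.26) and Tirap (-0.27) in cKO against WT after IL-4. Of 792 values of single members under alternatives, 681 stayed within the 95% limits of the reported value and 111 did not. TPM also moved the median of all genes by 0.28 for LPS and 0.17 for IL-4 in cKO. The share of called genes that were higher moved by over 10 percentage points under TMM and the median ratio for LPS and IL-4 against NT, under TPM for IL-4 in cKO (from 63.1% to 76.6%) and cKO against WT in NT (from 46.3% to 22.0%), under the median ratio for cKO against WT after LPS (from 62.8% to 51.4%), and under library totals for K122R. The threshold of 2-fold moved it for cKO against WT in NT (to 25.4%) and after IL-4 (from 56.5% to 79.3%), for D/E-A (from 50.5% to 37.8%) and for Zmynd8 KO (from 48.0% to 32.3%).

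No paired analysis was possible because each group holds 1 library, and for the same reason no replicate was left out. Among BMDM libraries the counts are lowest for Ticam2 and Tirap, with 217 and 269 counts in cKO NT. The spread between cultures is unknown.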
